A study of Mus musculus with 6 samples.

Results

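Aminoacyl-tRNA synthetases were examined in macrophages with intact Xbp1 and with its deletion. The family was taken as a fixed list of 36 gene symbols, 20 cytosolic and 16 mitochondrial (the symbols ending in 2), and all 36 were found under those symbols among the 54532 genes of the deposited table. Messenger RNA was sequenced from bone marrow-derived macrophages (BMDMs), cells grown in culture from bone marrow precursors, of C57BL/6 mice aged 32 to 34 weeks. The control group, XWT, has the genotype Xbp1FL/FL, in which floxed Xbp1 is left intact. XKO has the genotype Xbp1ΔMf, a deletion in macrophages by its label. No label names the promoter that drives the recombinase. Both groups were primed with lipopolysaccharide (LPS), a bacterial cell wall component, and then kept for 48 h in conditioned medium from wild-type primary hepatocytes. Each group had 3 libraries of 28354866 to 30891729 counts. Whether the libraries of a group come from separate mice or cultures is not in the labels, so each p-value reflects only how these libraries scatter, and that scatter may be technical.

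Each synthetase activity joins 1 amino acid to the transfer RNAs (tRNAs) that carry its anticodon, the step that fixes the genetic code. Cytosolic enzymes feed the ribosomes of the cytoplasm, and a separate nuclear-encoded set is imported to charge the tRNAs of mitochondria. Several cytosolic enzymes sit together in a large multi-synthetase complex held by scaffold proteins. Uncharged tRNA activates the kinase GCN2, and the ER stress sensor PERK acts on the same initiation factor, eIF2. Both pathways raise translation of the transcription factor ATF4, and many cytosolic synthetase genes have been reported in other cells to rise with it. XBP1 belongs to another arm of the unfolded protein response, the one driven by IRE1.

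Promoter sequence is shown first, because many of the cytosolic genes have been reported to follow ATF4. An element bound by ATF4 together with C/EBP proteins was searched as TGATGNAA on both strands. RefSeq promoters (GRCm38.p6, 250 bases before to 50 after the annotated start, 300 in all) matched 27 members, 13 cytosolic and 14 mitochondrial. The element was in 5 of the 13 cytosolic genes, Aars, Gars, Iars, Tars and Yars, and in 0 of the 14 mitochondrial genes. It was in 3.97% of all 32851 promoter windows. Matches are printed 5′ to 3′, 1 for each of these 5 genes, on the gene's strand as runs of 30 bases, with the 8 matched bases in capitals and the position of the first counted from the start site.
Aars at 10, chr8:111033840-111033869, plus strand: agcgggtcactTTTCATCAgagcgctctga
Gars at -30, chr6:55037960-55037989, plus strand: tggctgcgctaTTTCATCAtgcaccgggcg
Iars at 8, chr13:49682126-49682155, plus strand: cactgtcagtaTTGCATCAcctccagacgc
Tars at -15, chr15:11399655-11399684, minus strand: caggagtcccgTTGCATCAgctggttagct
Yars at 4, chr4:129189895-129189924, plus strand: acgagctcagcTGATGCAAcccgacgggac
In Aars, Gars, Iars and Tars the element lay on the opposite strand and in Yars on the gene's own strand. Aars holds another match, at -112 on the opposite strand, which is not printed. With only the 250 bases before the start, 3 members held the element, Aars, Gars and Tars. A match is a description of letters and not a measured binding site.

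The upstream stretches of Eprs and Qars, both called between the groups, are given next, 250 bases each. RefSeq's start can differ from the gene start in the deposited table, as it does for Qars, Aars and Yars. The table starts Aars at 111033144, so both Aars matches lie inside the gene as annotated there. It starts Qars at 108507706, so the Qars stretch printed here does too.
Eprs, chr1:185362794-185363043, plus strand: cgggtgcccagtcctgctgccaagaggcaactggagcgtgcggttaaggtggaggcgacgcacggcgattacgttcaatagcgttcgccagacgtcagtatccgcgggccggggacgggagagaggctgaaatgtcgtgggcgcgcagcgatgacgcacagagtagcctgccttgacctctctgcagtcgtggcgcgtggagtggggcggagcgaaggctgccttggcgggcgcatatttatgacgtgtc
Qars, chr9:108507755-108508004, plus strand: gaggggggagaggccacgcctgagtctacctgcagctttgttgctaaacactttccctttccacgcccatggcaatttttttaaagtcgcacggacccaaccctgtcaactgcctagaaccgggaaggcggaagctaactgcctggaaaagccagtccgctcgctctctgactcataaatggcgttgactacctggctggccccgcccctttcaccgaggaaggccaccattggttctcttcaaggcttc
Neither stretch held TGATGNAA, so both are in lower case throughout. In the full windows the core ACGTG, part of elements bound by XBP1, was in 6 of the 13 cytosolic genes (Aars and Eprs among them) and 4 of the 14 mitochondrial genes, against 19.6% of all windows. CCACG, the core of the ER stress element, was in 10 cytosolic genes (Eprs and Qars among them) and 6 mitochondrial genes, against 32.8% of all windows. Both motifs were searched on both strands, and a match to ACGTG can share bases with a match to CCACG.

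Of the whole series, the following bears on the family. Levels are given as CPM, each count relative to its library total, with TMM scaling between libraries. Xbp1 itself stood at 159, 157 and 132 CPM in XWT 1 to 3 and at 76.8, 79.4 and 76.5 CPM in XKO 1 to 3. The labels do not name the deleted exons, and a count over the whole gene can include reads outside them. On the first principal component of all genes, with 61.4% of the variance, XWT 3 stood at -18.2 and the other XWT libraries at -36.9 and -38.6. Of 8 macrophage markers, all tested, 0 were higher and 1 was lower (Lyz2), against 6.00% and 7.99% of all tested genes. Their sums were 39551 to 47892 CPM in XWT and 25278 to 26948 in XKO. Lyz2 made up a large part of these sums, with means of 31140 CPM in XWT and 14274 CPM in XKO. The 7 markers not called had log2 fold changes of -0.20 (Adgre1 and Cd14) to 0.11 (Itgam). Without XWT 3, 6 of the 8 were lower, and without both libraries numbered 3, 4 were. Lower calls over all tested genes were then 2164 and 1242, against 1145 with all libraries. All 7 hepatocyte markers were at 0 counts in every library, and the 7 lymphocyte markers summed to at most 0.419 CPM, with Cd3e, Cd3d and Ncr1 at 0. Of 13 fibroblast and stromal markers 10 passed the filter on low counts and all 10 were lower in XKO, with a summed level of 687 to 799 CPM in XWT and 64.0 to 80.6 in XKO. Of 12 neutrophil markers 9 passed, 7 were higher and 0 lower, with sums of 69.4 to 82.5 and 98.7 to 106 CPM. Synthetases are made by every cell type, and the part of these other cells in the synthetase values was not tested. In bulk RNA, fewer cells of a type and less RNA per cell cannot be told apart.

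Most synthetase transcripts did not pass the test between the groups. Eprs, which encodes the glutamyl- and prolyl-tRNA synthetase, a single protein with both activities, and Aars, the alanyl enzyme gene, were higher in XKO. Qars, the glutaminyl enzyme gene, was lower. These were the 3 members of 36 called by edgeR's quasi-likelihood test with Benjamini-Hochberg adjustment over 14333 tested genes (threshold 0.05), or 8.33% of the family, against 14.0% of all tested genes. All 36 members passed the filter on low counts, with 117 to 7040 reads per library.

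**Figure D1:**
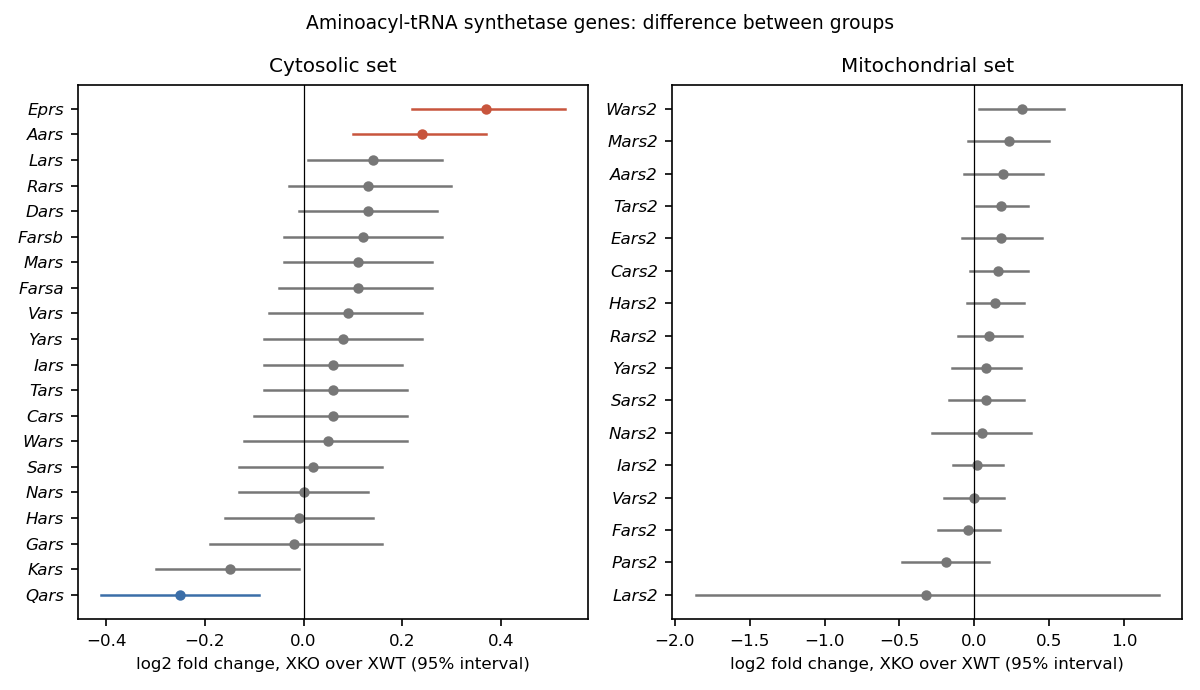
Log2 fold change of XKO over XWT (x axis, points) with its 95% interval (lines) for the 20 cytosolic and 16 mitochondrial synthetase genes, ordered by value, on separate x scales. Red marks genes called higher (Eprs 0.37, Aars 0.24), blue the gene called lower (Qars -0.25) and grey genes not called, and Lars2 has by far the widest interval, from -1.86 to 1.23.

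Eprs (ENSMUSG00000026615, chromosome 1 from 185363044 to 185428360, plus strand) stood at 149, 128 and 150 CPM in XWT 1 to 3 and at 187, 186 and 179 CPM in XKO 1 to 3. Every XKO library lay above every XWT library. The means were 142 ± 12.7 and 184 ± 4.38 CPM (SD, n = 3 each), a log2 fold change of 0.37 (standard error 0.0727, edgeR adjusted p = 0.00422), or 29.4% more. Eprs was called under all 16 alternative settings, with log2 fold changes of 0.23 to 0.44 and edgeR, DESeq2 or limma adjusted p-values of 4.38e-05 to 0.0346.

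Aars (ENSMUSG00000031960, chromosome 8 from 111033144 to 111057664, plus strand) stood at 135, 134 and 129 CPM in XWT 1 to 3 and at 158, 161 and 149 CPM in XKO 1 to 3. Again the groups did not overlap. The means were 133 ± 3.26 and 156 ± 6.18 CPM (SD, n = 3 each), a log2 fold change of 0.24 (standard error 0.0626, edgeR adjusted p = 0.0248), or 17.8% more. The call ended without XKO 1 (edgeR adjusted p = 0.130), XKO 2 (0.158) or XKO 3 (0.0670), with log2 fold changes of 0.21 to 0.27. Of the exon bases of Aars, 1326 are shared with Exosc6, an exosome subunit gene on the same strand, which has 0 counts in every library. No source used here says how reads of shared bases were counted.

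Qars (ENSMUSG00000032604, chromosome 9 from 108507706 to 108515941, plus strand) stood at 140, 157 and 130 CPM in XWT 1 to 3 and at 121, 118 and 120 CPM in XKO 1 to 3. Here every XKO library lay below every XWT library, and the XWT libraries were spread more widely. The means were 142 ± 13.6 and 120 ± 1.59 CPM (SD, n = 3 each), a log2 fold change of -0.25 (standard error 0.0733, edgeR adjusted p = 0.0368). Of the 3 calls it held under the fewest alternatives, 10 of 16. It ended without each single library other than XWT 3 (edgeR adjusted p = 0.0598 to 0.161) and with scaling by library size alone (log2 fold change -0.18, edgeR adjusted p = 0.0908). In the authors' deposited table Eprs has a log2 fold change of 0.37, Aars 0.23 and Qars -0.26, with adjusted p-values of 8.38e-05, 0.0119 and 0.0189.

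**Figure D2:**
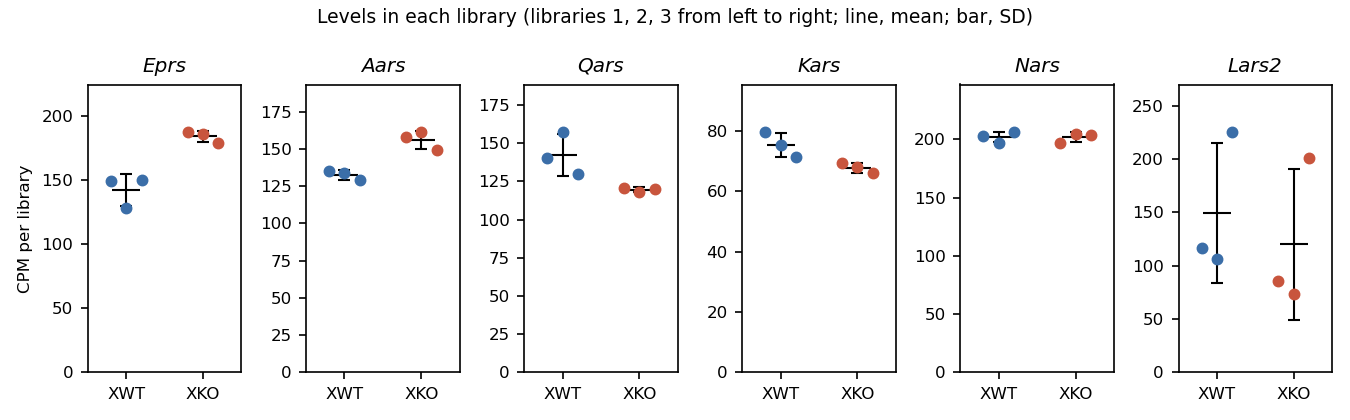
CPM (y axis from 0) of 6 synthetase genes in each XWT (blue) and XKO (red) library, libraries 1 to 3 from left to right within a group, with the mean and SD in black. Eprs and Aars are higher and Qars and Kars lower in all XKO libraries than in any XWT library, Nars is level near 202 CPM, and Lars2 is high in library 3 of both groups.

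The products of Eprs and Qars sit in the multi-synthetase complex. The ratio of Eprs to Qars CPM was 1.06, 0.814 and 1.16 in the XWT libraries and 1.55, 1.58 and 1.50 in the XKO libraries, without overlap. This ratio was chosen after the values were seen and was given no test. The complex holds 8 of the cytosolic members, Dars, Eprs, Iars, Kars, Lars, Mars, Qars and Rars. Of these 1 was higher, 1 lower and 6 not called (against 6.00% higher and 7.99% lower among all tested genes), with a median log2 fold change of 0.12 and a range of -0.25 to 0.37. Outside the complex 1 of 12 was higher (Aars) and 0 were lower by edgeR, with a median of 0.06. At an unadjusted p under 0.05, 2 complex members were higher (Eprs and Lars) and 2 lower (Qars and Kars), beside 14.5% higher and 16.3% lower among all tested genes.

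Kars, the lysyl enzyme gene, whose products serve both cytosol and mitochondria, missed the threshold. It stood at 79.4, 75.3 and 71.4 CPM in XWT 1 to 3 and at 69.3, 68.0 and 65.9 CPM in XKO 1 to 3, with no overlap. The log2 fold change was -0.15, with an interval of -0.30 to -0.01 (edgeR adjusted p = 0.136). It was called lower without XWT 3 (-0.19, edgeR adjusted p = 0.0351) and with trends in gene length and GC content removed (-0.18, edgeR adjusted p = 0.0495). Lars, the leucyl enzyme gene and a sensor of leucine for growth signalling, stood at 66.5, 66.7 and 68.4 CPM in XWT and at 76.4, 74.0 and 72.2 CPM in XKO. Its values did not overlap either, at a log2 fold change of 0.14 (edgeR adjusted p = 0.139). It was called higher only with library size alone (0.21, edgeR adjusted p = 0.0493). Gars, the glycyl enzyme gene that, like Kars, serves both compartments, stood at 94.7, 80.5 and 75.4 CPM in XWT and at 81.6, 85.8 and 80.3 CPM in XKO, so that XWT 1 was the highest library.

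Over the cytosolic set the log2 fold changes ran from -0.25 to 0.37 with a median of 0.07, against 0.00 for all tested genes. Of the 20 members 16 had a positive value (80.0%, against 50.2% of all tested genes), among them Nars at 0.00 and Sars at 0.02. The groups did not overlap for 5 members on the higher side (Aars, Dars, Eprs, Lars and Yars, against 17.5% of all tested genes) and 2 on the lower side (Kars and Qars, against 18.6%). These 7 members are 35.0% of the set, near the 36.2% of all tested genes whose groups did not overlap. The called share, 2 of 20 higher and 1 of 20 lower, stands beside 6.00% higher and 7.99% lower among all tested genes. For the 17 cytosolic members that were not called, the 95% intervals lay between -0.30 and 0.30 on the log2 scale, so larger changes than these are outside the intervals. The sum over the 20 genes was 1718, 1684 and 1634 CPM in XWT 1 to 3 and 1770, 1775 and 1747 CPM in XKO 1 to 3, without overlap. Within it Eprs and Aars, both called higher, had means of 142 and 133 CPM in XWT and 184 and 156 CPM in XKO. With Eprs and Aars left out the sums overlap. The sums in FPKM did overlap, at 396, 389 and 372 for the XWT libraries against 395, 399 and 394 for the XKO libraries.

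In the mitochondrial set no member was called in either direction by edgeR, DESeq2 or limma-voom, where edgeR called 14.0% of all tested genes. At an unadjusted p under 0.05 edgeR had 2 of 16 higher and 0 lower, against 14.5% and 16.3% of all tested genes. The log2 fold changes ran from -0.32 (Lars2) to 0.32 (Wars2) with a median of 0.09, and 12 of 16 were positive (75.0%, against 50.2% of all tested genes). The medians of the cytosolic and mitochondrial sets, 0.07 and 0.09, were thus close, and no test of the sets was run. The groups did not overlap for Cars2, Tars2 and Wars2 on the higher side and Pars2 on the lower side, 25.0% of the set, against 36.2% of all tested genes. Standard errors were larger than in the cytosolic set, with a median of 0.113 against 0.0712, at lower read counts. Without Lars2, the intervals of the other 15 genes lay between -0.48 and 0.60.

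Wars2, the mitochondrial tryptophanyl enzyme gene, had the smallest p of the set. It stood at 7.42, 7.04 and 6.79 CPM in XWT 1 to 3 and at 7.96, 8.10 and 10.4 CPM in XKO 1 to 3 (log2 fold change 0.32, standard error 0.133, edgeR adjusted p = 0.126). Without XKO 3 the log2 fold change was 0.18 (edgeR adjusted p = 0.476), and without both libraries numbered 3 it was 0.16 (0.455). Its cytosolic counterpart Wars, known as an interferon-induced gene, stood at 70.3, 65.6 and 58.3 CPM in XWT and at 67.2, 67.0 and 66.2 CPM in XKO (log2 fold change 0.05, interval -0.12 to 0.21). Tars2, the mitochondrial threonyl enzyme gene, stood at 26.2, 31.1 and 30.4 CPM in XWT and at 33.6, 32.9 and 33.3 CPM in XKO (log2 fold change 0.18, edgeR adjusted p = 0.144). Mars2, the mitochondrial methionyl enzyme gene, stood at 7.90, 8.29 and 10.1 CPM in XWT and at 9.80, 11.2 and 9.96 CPM in XKO (0.23, edgeR adjusted p = 0.232). XWT 3 lay inside the XKO range, and without it Mars2 was called higher (0.35, edgeR adjusted p = 0.0484). Pars2, the mitochondrial prolyl enzyme gene, had a log2 fold change of -0.19 (edgeR adjusted p = 0.361).

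Lars2, the mitochondrial leucyl enzyme gene (ENSMUSG00000035202, chromosome 9 from 123366927 to 123462666, plus strand), varied with the library number more than with the group. It stood at 117, 106 and 225 CPM in XWT 1 to 3 and at 85.6, 73.3 and 201 CPM in XKO 1 to 3. Library 3 was 2.02 times the mean of libraries 1 and 2 in XWT and 2.53 times in XKO. Of 9913 tested genes with a mean of at least 5 CPM, 2 had a ratio above 2 in both groups, Lars2 and Gm23935, a limit chosen after Lars2 was seen. Gm23935, a short gene annotated as a miRNA, stood at 120, 198 and 453 CPM in XWT and at 143, 125 and 382 CPM in XKO. The nuclear ribosomal RNA gene CT010467.1 stood at 1372, 803 and 1089 CPM in XWT and at 222, 188 and 609 CPM in XKO, high in XKO 3 but not highest in XWT 3. Mitochondrial 16S ribosomal RNA (mt-Rnr2) stood at 277, 190 and 215 CPM in XWT and at 246, 233 and 266 CPM in XKO. The part of these RNAs in the Lars2 count was not tested. With all libraries Lars2 had a log2 fold change of -0.32 (standard error 0.568, edgeR adjusted p = 0.757). Without both libraries numbered 3, an alternative chosen after the data were seen, it was -0.48 (edgeR adjusted p = 0.0119), which leaves 2 libraries a group. Left out singly, XWT 3 gave 0.11 and XKO 3 gave -0.91, neither of them called.

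**Figure D3:**
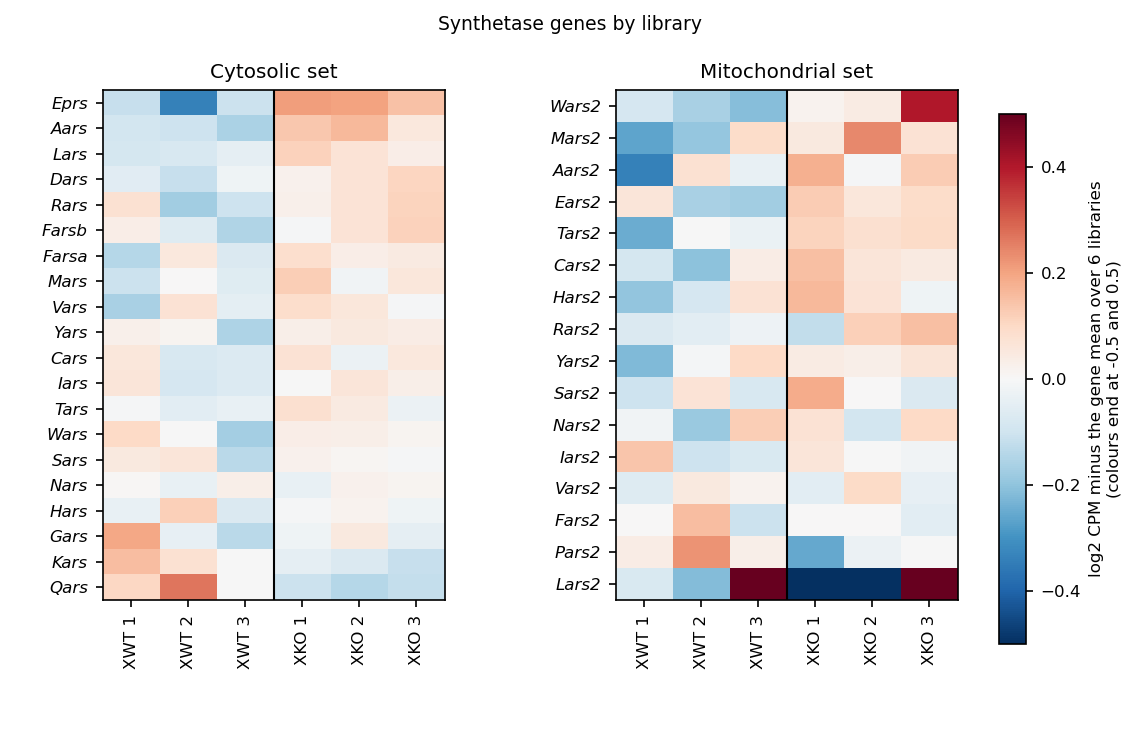
Log2 CPM of each synthetase gene minus its mean over the 6 libraries (colour, ends at -0.5 and 0.5), genes ordered by log2 fold change, with XWT left and XKO right of the line. Eprs and Aars are red and Qars and Kars blue in all XKO columns, and Lars2 is dark red in library 3 of both groups.

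The spread between libraries was not equal. The median coefficient of variation of the cytosolic genes was 6.60% in XWT and 2.67% in XKO, and XWT was the wider group for 15 of 20. For the mitochondrial genes it was 9.16% and 6.62%, with XWT wider for 10 of 16. All tested genes had medians of 10.6% and 5.28%, and XWT was wider for 10889 of 14333, so the wider XWT spread was not particular to the synthetases. Relative to each gene's mean over 6 libraries, the median cytosolic deviation (log2) was 0.02, -0.04 and -0.07 for the XWT libraries and 0.03, 0.05 and 0.03 for the XKO libraries. XWT 3 held the lowest value of the XWT libraries for 9 of 20 cytosolic genes and XWT 1 for 8 of 16 mitochondrial genes.

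Levels were compared between genes per length, from the deposited FPKM (fragments per kilobase of gene and per library size). The median over the cytosolic genes was 18.4 FPKM and over the mitochondrial genes 2.72 FPKM, a ratio of 6.73. Nars, the asparaginyl enzyme gene, was the highest, at 77.2, 75.2 and 77.5 FPKM in XWT and 74.6, 77.4 and 77.1 FPKM in XKO. It did not overlap the next gene, and its log2 fold change was 0.00, with an interval of -0.13 to 0.13. Hars, the histidyl enzyme gene, came next at 27.4, 30.6 and 26.6 FPKM in XWT and 27.9, 28.3 and 27.5 FPKM in XKO. Gars followed at 30.4, 25.9 and 24.0 FPKM in XWT and 26.0, 27.3 and 25.6 FPKM in XKO. The ranges of Hars and Gars overlapped. From Sars, the seryl enzyme gene, at 20.7 FPKM down to Mars, the methionyl enzyme gene, at 15.0 FPKM, each of the 12 genes overlapped its neighbour in the order. Near the bottom, Eprs stood at 8.23, 7.07 and 8.23 FPKM in XWT and 10.3, 10.2 and 9.84 FPKM in XKO. Cars, the cysteinyl enzyme gene, stood at 6.86, 6.24 and 6.22 FPKM in XWT and 6.88, 6.40 and 6.78 FPKM in XKO. Yars, the tyrosyl enzyme gene, was lowest at 6.53, 6.50 and 5.71 FPKM in XWT and 6.52, 6.60 and 6.54 FPKM in XKO. Cars and Yars overlapped each other, and Eprs lay above both. The table sets a length of 18102 bases for Eprs and 1987 for Hars, so the order also depends on the annotated length. For 33 of the 36 members this length equals the exon bases in GENCODE M21. It is shorter for Nars (2632 against 4355), Hars (1987 against 2447) and Lars (3856 against 5368). At the same counts the shorter length raises their FPKM, and Nars and Hars head the order.

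**Figure D4:**
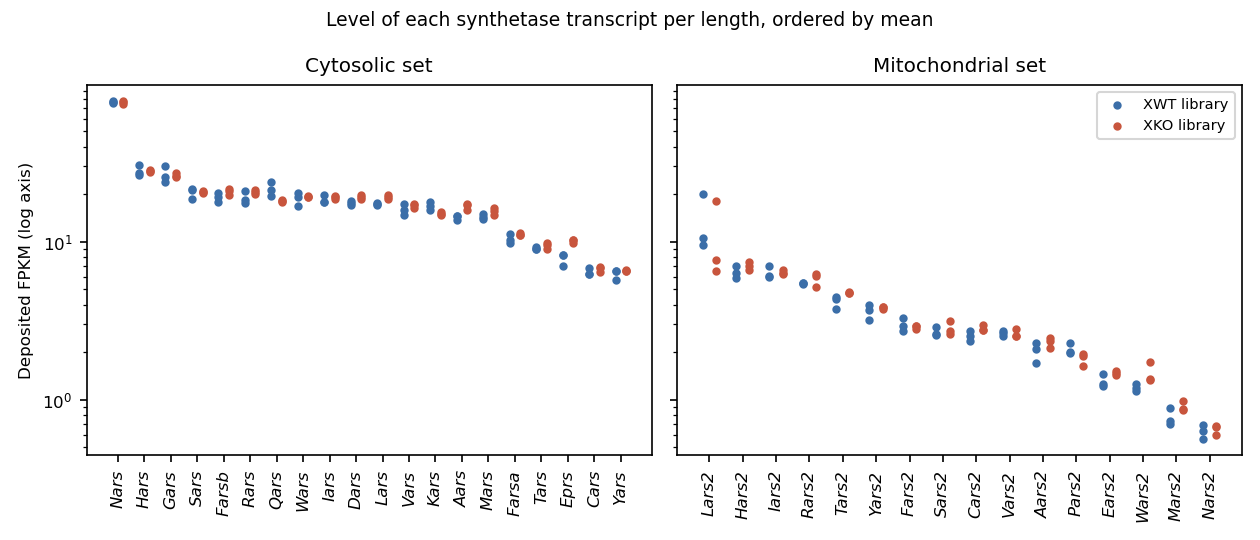
Deposited FPKM (log axis) of each synthetase gene in the 3 XWT (blue) and 3 XKO (red) libraries, ordered by mean within each set. Nars stands apart at 74.6 to 77.5 FPKM, most cytosolic genes lie in one plateau, and the mitochondrial genes descend to Nars2 at 0.567 to 0.693 FPKM.

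Among mitochondrial genes Lars2 had the highest mean, with 6.57 to 20.2 FPKM over the 6 libraries and the library pattern given above, and its range overlapped that of the next gene, Hars2. Hars2, the mitochondrial histidyl enzyme gene, followed at 5.87, 6.35 and 6.99 FPKM in XWT and 7.49, 6.99 and 6.58 FPKM in XKO. Iars2, the isoleucyl one, stood at 7.07, 5.98 and 6.03 FPKM in XWT and 6.65, 6.36 and 6.29 FPKM in XKO, overlapping Hars2. The bottom of the order held 3 genes that did not overlap each other. These were Wars2 at 1.19 ± 0.0584 FPKM in XWT and 1.47 ± 0.227 in XKO, and Mars2 at 0.775 ± 0.102 and 0.907 ± 0.0651 FPKM (SD, n = 3 each). Nars2, the asparaginyl one, was lowest at 0.634, 0.567 and 0.693 FPKM in XWT and 0.672, 0.599 and 0.685 FPKM in XKO. Hars and Hars2 are close paralogs whose annotated exons share 195 bases on opposite strands, and with an unknown strand setting their counts are uncertain. In all, 13 of the 36 members share exon bases with another gene, among them Mars with 68 bases of Ddit3 and Iars2 with 2148 bases of other genes.

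For the same amino acid the cytosolic transcript was the more abundant per length in every library, with the exception of Lars and Lars2, whose FPKM ratio was 0.873 in XWT 3. The widest gap was that of Nars and Nars2, with ratios of 111 to 133 over the 6 libraries. The short length that the deposited table sets for Nars, given above, raises this ratio. Mars over Mars2 was 15.1 to 20.6 and Wars over Wars2 11.0 to 16.3. Apart from Lars over Lars2, at 0.873 to 2.91, the narrowest were Yars over Yars2 at 1.44 to 2.03 and Tars over Tars2 at 1.90 to 2.45. The ratio of Eprs to Pars2 was 3.09 to 4.16 in XWT and 5.07 to 6.33 in XKO and did not overlap between the groups. For Wars over Wars2 the ratio was 14.8 to 16.3 in XWT and 11.0 to 14.6 in XKO, also without overlap. For every other pair the ratios overlapped between the groups. Eprs, Pars2 and Wars2 themselves did not overlap between the groups in CPM. No test was run on these ratios.

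The synthetases were then set beside the stress pathway with which they are reported to move. Of 26 genes on a list of Atf4 and its other reported targets, all tested, 10 were higher, 3 lower and 13 not called. Among all tested genes 6.00% were higher and 7.99% lower. The median log2 fold change of the list was 0.19. Atf4 stood at 131, 133 and 132 CPM in XWT 1 to 3 and at 168, 175 and 172 CPM in XKO 1 to 3 (log2 fold change 0.38, standard error 0.0599, edgeR adjusted p = 0.000955). Ddit3, which encodes the ER stress factor CHOP, rose by 0.67, Trib3 by 1.43 and the cystine transporter gene Slc7a11 by 1.27 (log2). The 3 lower genes were Pycr1, a proline synthesis gene, at -1.36, and the stress-induced growth regulators Ddit4 at -1.04 and Sesn2 at -0.35 (edgeR adjusted p = 0.00422, 0.0167 and 0.0166). Leaving out any XKO library left 5 of this list higher, and leaving out XWT 2, XKO 1 or XKO 3 left 1 lower. Higher calls over all tested genes fell from 860 to 274 to 316 without an XKO library. Lower calls fell from 1145 to 598 to 749 without XWT 2, XKO 1 or XKO 3. The list was chosen with earlier results of these data known.

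Of the 13 cytosolic synthetases reported in other cells to rise with ATF4, 2 were higher (Eprs and Aars), 0 were lower by edgeR, and 11 were not called. The called share, 15.4%, was near the 14.0% of all tested genes. At an unadjusted p under 0.05, 3 of the 13 were higher and 0 lower, against 14.5% and 16.3% of all tested genes. Their median log2 fold change was 0.06, and 12 of 13 values were positive (92.3%, against 50.2% of all tested genes). The positive values include Nars at 0.00, Sars at 0.02 and Wars at 0.05, whose signs changed under some alternative setting. Of the other 7 cytosolic members, Dars, Farsa, Farsb, Hars, Kars, Qars and Rars, 0 were higher and 1 lower (Qars), with a median of 0.11. The members with TGATGNAA in the promoter window had log2 fold changes of 0.24 (Aars), 0.08 (Yars), 0.06 (Iars), 0.06 (Tars) and -0.02 (Gars). Eprs, with the largest value of the family, has no match in that window. Mars and Ddit3 lie beside each other on chromosome 10 on opposite strands. Mars stood at 47.9, 51.7 and 49.5 CPM in XWT and at 56.1, 51.0 and 53.7 CPM in XKO (log2 fold change 0.11, edgeR adjusted p = 0.307), while Ddit3 was 17.6 to 18.2 CPM in XWT and 27.4 to 29.2 CPM in XKO.

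**Figure D5:**
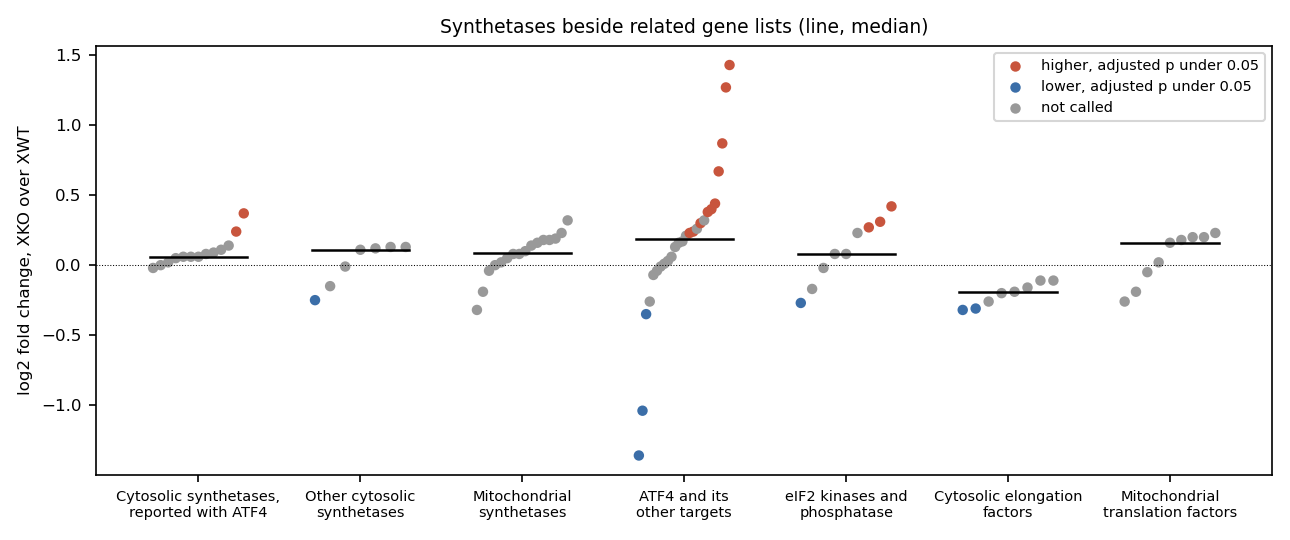
Log2 fold change of XKO over XWT (y axis) for each tested gene of 7 lists, with the list median as a line, red for genes called higher, blue for genes called lower and grey for genes not called. Synthetases lie between -0.32 and 0.37, while the list of Atf4 and its other targets runs from -1.36 (Pycr1) to 1.43 (Trib3).

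Upstream of ATF4, 9 of 10 listed genes of eIF2 kinases, eIF2 and its phosphatase were tested. Of these 3 were higher and 1 lower, against 6.00% and 7.99% of all tested genes. Impact, which encodes an inhibitor of GCN2, rose by 0.42, Eif2ak2, the gene of the double-stranded RNA kinase PKR, by 0.31, and Ppp1r15a, the gene of the stress-induced phosphatase subunit GADD34, by 0.27 (log2). Eif2ak3, which encodes PERK, fell by 0.27 (edgeR adjusted p = 0.0363). Eif2ak4, the gene of GCN2 itself, did not pass (edgeR adjusted p = 0.0508). No gene of this list was higher (edgeR) when XKO 2 or XKO 3 was left out, and 1 was when XWT 2 or XKO 1 was. Higher calls over all tested genes also fell, from 860 to 460 without XWT 2 and to 274 to 316 without an XKO library. Leaving out XWT 3 gave 2 lower genes, and leaving out any other single library gave 0. Lower calls over all tested genes were 2164 without XWT 3 and 532 to 975 without another single library, against 1145 with all libraries.

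Elongation factors take up the charged tRNA. All 8 listed genes of cytosolic elongation had negative log2 fold changes, with a median of -0.19, where 50.2% of all tested genes were positive. Of the 8, 2 were called lower, against 7.99% of all tested genes. These were Eef1b2, which encodes an exchange factor for the elongation factor that delivers charged tRNA (-0.31 ± 0.0706, SE), and Eef2k, the gene of a kinase that inhibits elongation (-0.32 ± 0.0813, SE). The sum over all 8 was 11972, 11772 and 10077 CPM in XWT 1 to 3 and 9751 to 9879 CPM in XKO. Most of it came from Eef1a1 and Eef2, which were not called (edgeR adjusted p = 0.126 and 0.0561). The 2 called genes became 7 without XWT 3 and 0 without XKO 1, XKO 2 or XKO 3. Over all tested genes lower calls were 2164 without XWT 3 and 532 to 599 without an XKO library, against 1145 with all libraries. Of 10 listed mitochondrial translation factors 9 were tested, with a median of 0.16. At an unadjusted edgeR p under 0.05, 2 were higher and 1 lower, against 14.5% and 16.3% of all tested genes. After adjustment 0 were called by edgeR, DESeq2 or limma-voom. Without XWT 1, 1 was higher, without XWT 3, 1 was higher and 1 lower, and with library size alone 2 were higher (edgeR). Over all tested genes 639, 2073 and 1158 were higher under these settings, and 2164 were lower without XWT 3. The genes nearest the threshold were Gfm1 and Gfm2, both encoding mitochondrial elongation factors, at 0.20 and 0.18 (edgeR adjusted p = 0.0894 and 0.129).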

How the data were processed

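Total RNA (Trizol) went into NEBNext Ultra libraries, per the labels' protocols. Bowtie 0.12.2, mm8 and mm10 are named, without their role, per the submitters' processing notes. The counter, annotation and strand setting were not given in those sources. Of the table's genes, 98.3% of those with an ID in GENCODE M21 (GRCm38) had the same coordinates.

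The authors deposited whole-number read counts per Ensembl gene, FPKM values scaled per length and library, group means of scaled counts (a signal, not used here), and a log2 fold change, p-value and adjusted p-value of their own comparison, per the file headers.

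Counts were tested with edgeR 4.0.16 in R 4.3.3: filterByExpr kept 14333 genes, TMM scaling, a robust quasi-likelihood fit of XKO against XWT with 4 residual degrees of freedom, Benjamini-Hochberg adjustment over all tested genes, threshold 0.05. Each standard error was obtained by dividing the log2 fold change by the square root of F, and intervals are 95%. CPM are TMM-scaled. Depth was 28354866 to 30891729 counts per library, and the biological coefficient of variation was 0.0865. Arms of this size limit precision, and genes with few counts carry more counting error. The scripts were tested on simulated data.

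Members and lists were chosen with earlier results of these data known. Every member is accounted for, with full values for called members and the 3 highest and 3 lowest by FPKM in each set, and up to 4 called genes of each other list. Where a gene outside this rule is given, it was chosen after its values were seen. Ddit3 is on 2 rows, and the row with reads was used. Promoters are from RefSeq (GRCm38.p6), and none was printed for genes on chromosome 18. Alternatives were other scalings, filters, DESeq2 1.42.0, limma 3.58.1 voom with and without library weights, a replicate block, removal of length and GC trends (GC known for 99.9% of tested genes), and leaving out libraries. No set test was run.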

Additional observations from a re-analysis of the deposited data

How the results depend on the processing

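Under 16 alternatives, 559 of 576 values of single synthetase genes stayed on their side of the threshold, and Eprs was called in all of them, Aars in 13 and Qars in 10. The sign at 2 decimals changed under some setting for Dars, Gars, Hars, Nars, Sars, Wars, Fars2, Iars2, Lars2, Nars2 and Vars2, none of them called in both directions. Mars2 was 0.00 with length and GC trends removed. With single libraries left out, Sars2 reached 0.00 and Yars2 -0.00. Leaving out single libraries gave 1 to 2 cytosolic synthetases higher and 0 to 2 lower, 0 to 1 mitochondrial synthetases higher and 0 lower, 274 to 2073 of all genes higher and 532 to 2164 lower. The medians then ranged from 0.05 to 0.09 for the cytosolic set and from 0.08 to 0.14 for the mitochondrial set and were 0.00 for all tested genes, the highest mitochondrial value being without XWT 3. Without both libraries numbered 3, 1321 genes were higher, 1 mitochondrial synthetase (Lars2) was lower, the mitochondrial median was 0.14 and that of all genes 0.01. With scaling by library size alone, 749 of all genes were lower (60.7% of calls were higher, against 42.9%), 3 cytosolic synthetases were higher and 0 lower, and the medians were 0.14 for the cytosolic set, 0.16 for the mitochondrial set and 0.07 for all tested genes. At least 1 CPM in all 6 libraries left 752 genes lower. With length and GC trends removed, 4 cytosolic synthetases were higher (Aars, Eprs, Mars and Vars) and 2 lower (Kars and Qars), with a cytosolic median of 0.10 and -0.01 for all tested genes. The median of all tested genes was 0.01 with no filter, DESeq2, limma-voom, library weights or the replicate block. The 5 members with TGATGNAA became 3 in the shorter window. The causes were not tested.

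The libraries share replicate numbers, but same-numbered libraries did not deviate together over all genes (correlations of -0.054 to -0.036), and no library correlated best with its own number. With the replicate block 2195 genes were called against 2005, and 1 mitochondrial synthetase was lower, Lars2 (-0.38, edgeR adjusted p = 0.00197).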

Other observations

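Partners of the synthetases were also read. Of 11 listed genes of proofreading and tRNA charging partners, all tested, 1 was higher and 0 were lower in XKO (edgeR), against 6.00% and 7.99% of all tested genes. It was Sepsecs, which encodes the enzyme that completes selenocysteine on its tRNA, at 16.4 ± 0.639 CPM in XWT and 20.4 ± 0.866 CPM in XKO (SD, n = 3 each; log2 fold change 0.31, edgeR adjusted p = 0.0296). The call ended without each single library other than XWT 3 and with length and GC trends removed. At an unadjusted p under 0.05, 1 was higher and 0 lower, against 14.5% and 16.3% of all tested genes. Of the 3 scaffold genes of the multi-synthetase complex, 0 were called by edgeR, DESeq2 or limma-voom (1 higher at an unadjusted edgeR p under 0.05). Eef1e1 stood at 13.3 ± 1.19 and 16.2 ± 0.845 CPM (SD, n = 3 each; log2 fold change 0.28, edgeR adjusted p = 0.0759), and Aimp1 at 42.0 ± 2.51 and 38.8 ± 1.90 CPM (log2 fold change -0.11, edgeR adjusted p = 0.330). Eef1e1 was called higher without XWT 1 and with library size alone, and Aimp1 was called lower with length and GC trends removed (-0.35, edgeR adjusted p = 0.0250).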
